A study of Rattus norvegicus with 6 samples.

Results

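Semaphorins, plexins, Eph receptors, ephrins, Slits and Robos are families of guidance cues, secreted or bound to the membrane, and of their receptors. The members were every protein-coding gene of the deposited table whose name begins with Sema3 to Sema7, a plexin A to D prefix, an Eph receptor or ephrin prefix, or is Slit1 to Slit3 or Robo1 to Robo4, which gave 57 of 34156 genes. Of these, 20 were semaphorins, 9 plexins, 13 Eph receptors, 8 ephrins and 7 Slit or Robo genes. The rule reads gene names and no measured value.

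RNA-seq was performed on wild-type rat RA-FLS, synovial fibroblast-like cells labelled as rheumatoid arthritis and bought by the study as a cell stock. The TNF-α group (3 libraries) received TNF-α at 10 ng/mL, and the TNF-α+EMO group (3 libraries) received the same TNF-α together with EMO at 80 μmol/L. EMO is emodin, an anthraquinone of rhubarb, and TNF-α is a cytokine that drives inflammation in the arthritic joint. Both groups were given TNF-α, so a difference between them is a difference with EMO in TNF-α-treated cells, and no library without TNF-α was analysed here. The labels give day 5 for every library, whereas the study's methods state a shorter incubation.

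Semaphorins are secreted or membrane-bound ligands that signal through plexins, and most secreted class 3 members need a neuropilin as co-receptor. Eph receptors are tyrosine kinases that bind ephrins on the neighbouring cell, with the ephrin-A ligands tethered by a lipid anchor and the ephrin-B ligands spanning the membrane, so that signals can pass in both directions. Slits are secreted proteins that bind Robo receptors and are best known for repelling axons, and all of these families also steer the adhesion and migration of cells outside the nervous system, fibroblasts included.

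The libraries held 16813322 to 17794455 counts. Within a group the libraries correlated at Pearson's r of 0.985 to 0.989 over the genes tested, and between groups at 0.746 to 0.76. The median size of the log2 difference between libraries was 0.103 to 0.108 within the TNF-α group and 0.129 to 0.23 within the TNF-α+EMO group, with EMO libraries 1 and 3 the farthest apart. The groups differed across much of the transcriptome: of 13614 genes tested, 47.3% were DEGs, here genes with an adjusted p under 0.05 in edgeR's quasi-likelihood test and an absolute log2 fold change over 1. In the TNF-α+EMO group 19.5% of the genes were DEGs with a higher level and 27.8% DEGs with a lower level, and the median log2 fold change of all genes was -0.01. Every count below is to be read against these shares. The 15 fibroblast markers listed summed to between 222819 and 243169 normalized counts in the TNF-α libraries and to between 36197 and 38846 in the TNF-α+EMO libraries, with 9 of the 12 tested called lower and 2 called higher. The markers at 0 in all 3 TNF-α+EMO libraries were Pdpn, Thy1, Prg4, Fap and Lum. Of these, the defining synovial fibroblast markers Pdpn, Thy1 and Prg4 had at most 7 counts in any library. Not all markers fell: the log2 fold changes of the 12 tested ran from -10.92 to 4.02 (median -5.96). The part that this shift in fibroblast markers has in the results below was not tested. In such bulk samples, fewer cells of a type and less RNA per cell cannot be told apart.

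Of the 57 guidance genes, 38 had at least 10 counts in at least 3 libraries and were tested, and 19 were not. Among the 38 tested, 29 were called lower in the TNF-α+EMO group and 3 were called higher, or 76.3% lower against 27.8% of all genes. Another 3 passed the adjusted p alone (Sema3c, Efna1 and Epha2), and Sema3d, Sema4g and Sema6a did not. By the adjusted p alone 31 members were lower and 4 higher, where 80.9% of all genes passed, 41.4% lower and 39.4% higher. On the log2 scale the 38 had a median fold change of -1.87 and a range from -7.56 to 6.10. The values of the groups did not overlap for 35 members (31 lower and 4 higher), or 92.1%, against 82.9% of all genes (42.5% lower and 40.3% higher). Passing the count filter was itself tied to the groups for 23.7% of the members and 14.3% of all genes tested. Only through the TNF-α libraries passed 7 members, Sema3a, Sema3g, Sema4d, Sema6c, Sema7a, Efna2 and Ephb2, all called lower. Only through the TNF-α+EMO libraries passed 2 members, Plxnc1 and Epha10, both called higher. For these genes the filter and the call rest on the same counts. Among the 27 members with a mean of at least 100 normalized counts over the 6 libraries, 22 were called lower and 1 higher, or 81.5% and 3.7%. Of the 10263 genes at that level, 24.1% were called lower and 19.1% higher.

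**Figure D1:**
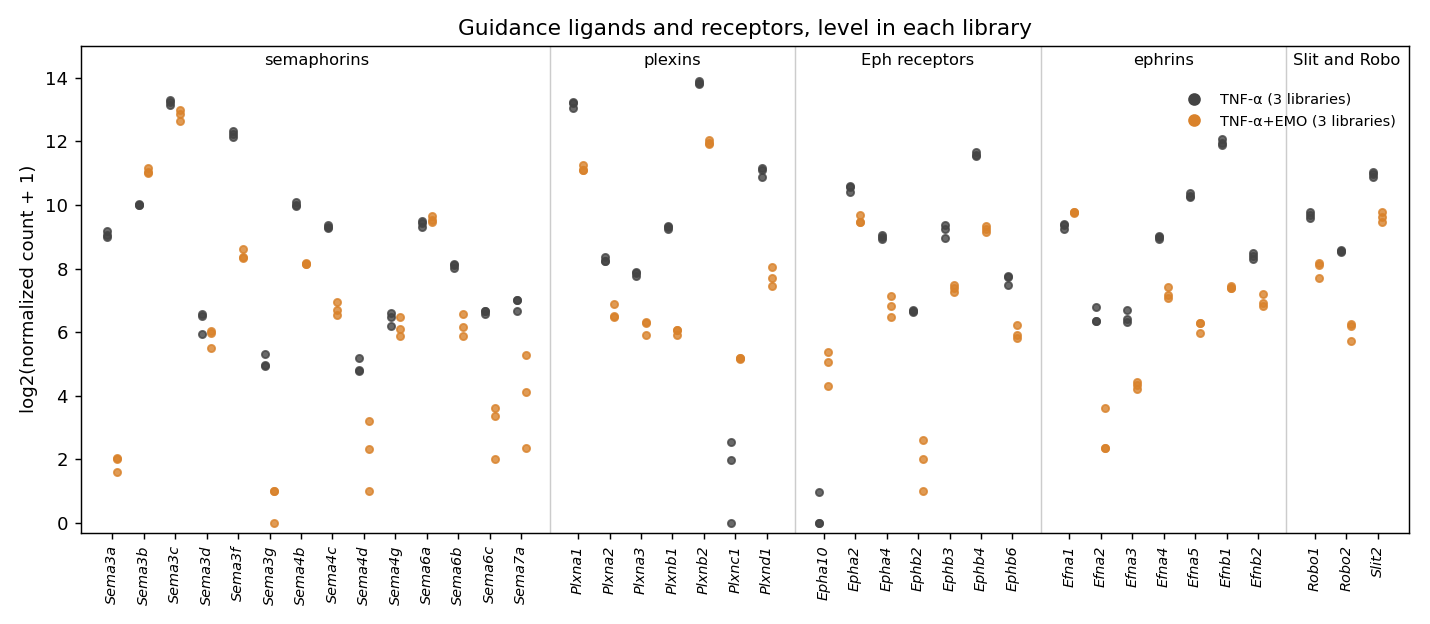
Level of each of the 38 tested guidance genes in every library, as log2 of the normalized count plus 1 on the vertical axis, with genes grouped by family along the horizontal axis. Each dot is 1 library (dark grey, TNF-α; orange, TNF-α+EMO), and the orange dots lie below the grey ones for 31 genes and above them for 4 genes.

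The lower level ran through both sides of the signalling. Of the 22 ligands tested, 16 were called lower and 1 higher (median log2 fold change -2.04), and of the 16 receptors tested, 13 were called lower and 2 higher (median -1.86). By family, the calls were 9 lower and 1 higher of 14 semaphorins, 6 lower and 1 higher of 7 plexins, 5 lower and 1 higher of 7 Eph receptors, 6 lower of 7 ephrins, and 3 lower of 3 Slit and Robo genes. The medians lay between -2.24 for semaphorins and -1.67 for Slit and Robo genes. The 3 called higher were Sema3b, Plxnc1 and Epha10. The last 2 were near the floor of 3 counts in the TNF-α libraries and passed the count filter only through the TNF-α+EMO libraries.

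**Figure D2:**
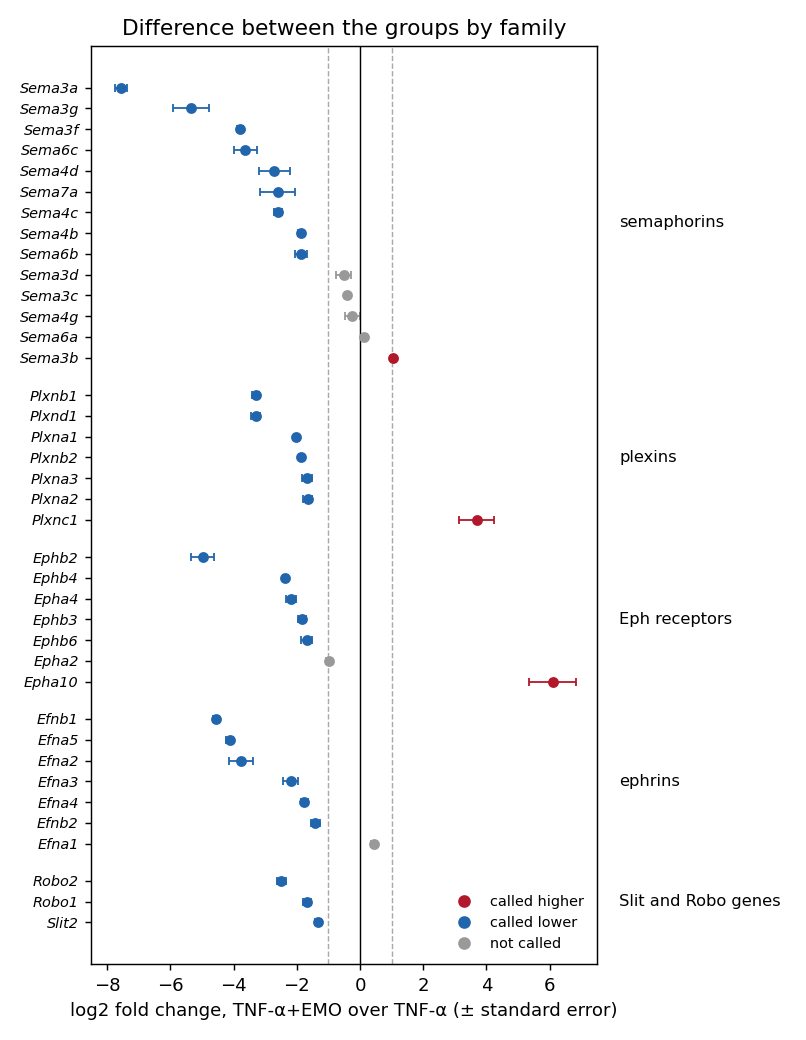
Log2 fold change of each tested guidance gene, TNF-α+EMO over TNF-α, with its standard error (3 libraries per group), ordered within each family. Red points were called higher, blue points called lower and grey points not called, the dashed lines mark a log2 fold change of -1 and 1, and 29 of the 38 points are blue.

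Among the class 3 semaphorins, the secreted ligands, 3 of the 6 tested were called lower and 1 higher. Sema3c was the most abundant, at 8996, 10120 and 9598 normalized counts (counts scaled by the TMM library size) in the TNF-α libraries, against 8038, 7422 and 6368 in the TNF-α+EMO libraries. The groups did not overlap, but the fall was small (log2 fold change -0.40, standard error 0.08, adjusted p = 1.3e-03). Sema3f, which acts mainly through neuropilin-2, had 5168, 4834 and 4490 normalized counts in the TNF-α libraries, against 332, 395 and 323 with EMO. Every TNF-α library thus lay far above every TNF-α+EMO library, and Sema3f fell 13.8-fold (log2 fold change -3.79, standard error 0.09, adjusted p = 4.4e-11). Gnat1, an overlapping gene, had at most 13 counts.

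Sema3a, the founding repellent semaphorin and a neuropilin-1 ligand, had 519, 591 and 546 raw counts in the TNF-α libraries, against 3, 2 and 3 in the TNF-α+EMO libraries. It was thus at the floor with EMO. The ratio of the summed normalized counts was 197, with a 95% exact counting interval of 99.9 to 458, and the adjusted p was 4.7e-11. Sema3g followed the same pattern at a lower level, with 31, 30 and 40 raw counts against 1, 0 and 1, a ratio of 48.1 (interval 13.0 to 403, adjusted p = 4.9e-06). The intervals cover counting error only.

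Sema3b went the other way. It had 1056, 1029 and 1029 normalized counts in the TNF-α libraries, against 2089, 2069 and 2285 in the TNF-α+EMO libraries, and each library with EMO was above each library without it. The rise was 2.07-fold (log2 fold change 1.05, standard error 0.06, adjusted p = 5.6e-08), only just past the fold threshold, and the call was lost when library totals replaced TMM (0.93) or when EMO library 3 was left out (1.00). Sema3b and Sema3f are neighbours on chromosome 8, at 116354073 to 116361343 and 116437696 to 116469915, with a gap of 76.4 kb that holds 3 listed genes, and their log2 fold changes had opposite signs. On chromosome 4, Sema3a and Sema3d lie 828 kb apart. Sema3d, named here after its values were seen, had 81.7 ± 18.1 normalized counts in the TNF-α group and 57.1 ± 10.7 in the TNF-α+EMO group (SD, n = 3 each) and did not pass the test (log2 fold change -0.52, standard error 0.25, adjusted p = 0.074 by edgeR).

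Of the membrane-bound class 4 semaphorins, 3 of the 4 tested were called lower. Sema4b had 1029, 997 and 1095 normalized counts against 282, 280 and 291 with EMO, and fell 3.66-fold (log2 fold change -1.87, standard error 0.08, adjusted p = 2.8e-09). Sema4c, a ligand of plexin-B2, had 662, 637 and 620 against 103, 91.1 and 122, a fall of 6.06-fold (log2 fold change -2.60, standard error 0.12, adjusted p = 4.3e-09). Neither gene had overlapping groups. Sema4g did overlap, with 87.3, 72.2 and 95.5 normalized counts in the TNF-α libraries, against 68.1, 89.0 and 58.1 in the TNF-α+EMO libraries (log2 fold change -0.24, standard error 0.23, adjusted p = 0.33).

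Among classes 5 to 7, 3 of the 4 tested were called lower. Sema6a, a transmembrane ligand of plexins A2 and A4, had 692, 626 and 718 normalized counts against 797, 744 and 709 with EMO. The groups overlapped, and the log2 fold change of 0.14 (standard error 0.09) did not pass the test (adjusted p = 0.14). Its relatives Sema6b and Sema6c had log2 fold changes of -1.87 (standard error 0.18, adjusted p = 2.7e-06) and -3.63 (standard error 0.36, adjusted p = 2.8e-06), and both were called lower. Sema7a, which is lipid-anchored and signals through plexin-C1 and integrins, had 128, 128 and 101 normalized counts in the TNF-α libraries, against 16.5, 4.09 and 37.7 in the TNF-α+EMO libraries. The EMO libraries were all lower but spread widely (log2 fold change -2.61, standard error 0.56, adjusted p = 2.9e-03).

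Plexins, the semaphorin receptors, were lower for 6 of the 7 tested. Plxnb2, the most abundant of all the guidance receptors in counts, had 15097, 14667 and 14158 normalized counts in the TNF-α libraries, against 4191, 3975 and 3891 in the TNF-α+EMO libraries. Plxna1, which pairs with neuropilins as a receptor of class 3 semaphorins, had 9402, 9609 and 8440 against 2421, 2176 and 2173. The groups were far apart for both, with log2 fold changes of -1.87 (standard error 0.06, adjusted p = 2.4e-10) and -2.02 (standard error 0.07, adjusted p = 7.2e-10). The other plexin-A genes tested had similar values, -1.65 (standard error 0.14) for Plxna2 and -1.67 (standard error 0.16) for Plxna3.

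Plxnd1, best known as a vascular receptor of Sema3e, had 2298, 2208 and 1885 normalized counts against 265, 176 and 206 with EMO. Plxnb1, a receptor of Sema4d, had 643, 636 and 605 against 66.0, 59.3 and 66.2. Both fell nearly 10 times, 9.88-fold for Plxnd1 and 9.82-fold for Plxnb1, and both had -3.30 on the log2 scale (standard errors 0.14 and 0.11, adjusted p = 1.1e-08 and 3.0e-10). Plxnc1, a receptor of Sema7a, was the plexin that rose, and is named here after its values were seen. It had 5, 0 and 3 raw counts in the TNF-α libraries, against 34, 35 and 34 in the TNF-α+EMO libraries, a ratio of summed normalized counts of 13.5 (95% exact counting interval 6.60 to 32.1, adjusted p = 9.4e-05). It passed the count filter only through the TNF-α+EMO libraries, and even there it was among the rarest plexin transcripts.

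Eph receptors were lower for 6 of the 7 tested by the adjusted p, 5 of them past the fold threshold. Ephb4 was the most abundant in counts, at 3221, 3065 and 2983 normalized counts in the TNF-α libraries, against 561, 606 and 644 in the TNF-α+EMO libraries, and fell 5.12-fold (log2 fold change -2.36, standard error 0.07, adjusted p = 2.0e-10). Ephb3, at 666, 605 and 500 against 151, 166 and 177, and Ephb6, a member without kinase activity, at 218, 179 and 213 against 59.8, 55.3 and 74.4, had log2 fold changes of -1.84 (standard error 0.13) and -1.69 (standard error 0.18). Ephb2, a receptor of Efnb1, had 99.1, 102 and 100 normalized counts in the TNF-α libraries, against 1.03, 5.12 and 3.06 with EMO. All 4 tested EphB genes were thus called lower and none had overlapping groups, with Ephb2 near the floor in the TNF-α+EMO group (ratio of summed counts 32.7, 95% exact counting interval 17 to 72.3, adjusted p = 3.0e-07).

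The EphA genes were more mixed. Epha2, the receptor of Efna1, had 1516, 1366 and 1543 normalized counts in the TNF-α libraries, against 700, 707 and 823 in the TNF-α+EMO libraries, and fell 1.98-fold (log2 fold change -0.99, standard error 0.09, adjusted p = 1.0e-06), just short of the fold threshold. It passed that threshold with upper-quartile scaling (-1.03), library totals (-1.10), the stricter count filter (-1.01) or without EMO library 3 (-1.07) or TNF-α library 2 (-1.04). Epha4 had 509, 488 and 534 against 139, 112 and 87.6 (log2 fold change -2.18, standard error 0.15, adjusted p = 1.5e-07). Epha10, a receptor lacking kinase activity, was the Eph gene that rose, from 0, 0 and 1 raw counts to 18, 40 and 32 (ratio 94.4, 95% exact counting interval 16.5 to 3769, adjusted p = 1.6e-05). It passed the count filter only through the TNF-α+EMO libraries.

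The ephrins held the largest fall among the members with a mean of at least 100 normalized counts in both groups. Efnb1, the transmembrane ephrin on the X chromosome (68891227 to 68904038), had 4351, 3975 and 3816 normalized counts in the TNF-α libraries, against 176, 166 and 167 in the TNF-α+EMO libraries. The lowest TNF-α library was thus far above the highest library with EMO, and the fall was 23.8-fold (log2 fold change -4.57, standard error 0.08, adjusted p = 5.5e-12). Efnb2, the partner of Ephb4, had 316, 359 and 339 against 147, 111 and 120 (log2 fold change -1.42, standard error 0.14, adjusted p = 2.6e-06). Efna5, a lipid-anchored ligand, had 1247, 1334 and 1218 against 77.4, 62.4 and 77.4, and fell 17.5-fold (log2 fold change -4.13, standard error 0.11, adjusted p = 6.2e-11).

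Efna1, a TNF-inducible ephrin in endothelial cells, was the ephrin that did not fall. It had 673, 602 and 666 normalized counts in the TNF-α libraries, against 885, 857 and 880 in the TNF-α+EMO libraries. The groups did not overlap, and the rise was 1.35-fold (log2 fold change 0.43, standard error 0.08, adjusted p = 3.5e-04), under the fold threshold. Its neighbours on chromosome 2 fell. Efna4 had 484, 506 and 524 against 142, 133 and 170 (log2 fold change -1.76, standard error 0.12, adjusted p = 9.2e-08), and Efna3, named here for its place between them, had 78.5, 102 and 84.8 against 17.5, 20.5 and 19.4 (log2 fold change -2.20, standard error 0.24, adjusted p = 6.8e-06). In the deposited coordinates Efna1 lies at 188588796 to 188596222, Efna3 lies 41.6 kb beyond it, and Efna4 lies 10.7 kb beyond Efna3, with no listed gene between the last pair. Within less than 100 kb, 1 gene therefore rose and 2 fell.

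The promoters of these neighbours are shown because the genes lie side by side and moved in opposite directions. Sequences are from RefSeq on GRCr8 (250 bases before to 50 bases after the annotated start, all on the minus strand, written 5′ to 3′ along the gene), another build than that of the deposited coordinates. Capitals mark GCGTG or its reverse complement CACGC, the core to which the aryl hydrocarbon receptor binds. The windows are chr2:176986772-176987071 for Efna1, chr2:177035789-177036088 for Efna3 and chr2:177050664-177050963 for Efna4.
Efna1: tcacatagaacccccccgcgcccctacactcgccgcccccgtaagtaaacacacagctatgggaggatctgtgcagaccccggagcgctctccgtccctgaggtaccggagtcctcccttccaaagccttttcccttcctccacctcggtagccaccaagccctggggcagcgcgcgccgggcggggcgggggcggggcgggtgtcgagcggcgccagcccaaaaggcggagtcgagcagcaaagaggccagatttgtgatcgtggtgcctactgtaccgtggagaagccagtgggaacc
Efna3: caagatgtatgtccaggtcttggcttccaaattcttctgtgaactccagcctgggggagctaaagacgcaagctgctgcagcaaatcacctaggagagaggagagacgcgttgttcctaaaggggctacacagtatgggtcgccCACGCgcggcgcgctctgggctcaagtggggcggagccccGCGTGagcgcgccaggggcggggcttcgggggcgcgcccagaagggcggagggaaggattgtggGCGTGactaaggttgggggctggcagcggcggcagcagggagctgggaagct
Efna4: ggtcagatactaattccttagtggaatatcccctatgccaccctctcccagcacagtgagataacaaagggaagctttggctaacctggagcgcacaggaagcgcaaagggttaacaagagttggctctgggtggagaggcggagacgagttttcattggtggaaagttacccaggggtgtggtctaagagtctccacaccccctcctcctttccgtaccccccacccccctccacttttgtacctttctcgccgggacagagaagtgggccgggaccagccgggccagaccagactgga
The Efna3 window held 3 such matches and the windows of Efna1 and Efna4 none. GC content was 66.0%, 64.3% and 56.3% in this order, with 25, 22 and 9 CpG dinucleotides. Over the 45 members with an entry in the table, 18 (40.0%) held GCGTG on either strand, against 29.7% of all 33469 promoters. The members' promoters were also richer in GC than all promoters, with a median of 63.3% against 51.7% and a median of 18 against 7 CpG dinucleotides. The kappa B motif, searched on both strands, was in none of the 45 windows and in 1.53% of all, and the AP-1 letters TGANTCA, the same on both strands, were in 1 window, that of Epha10, and in 7.33% of all. These are matches of letters in a short window and say nothing of binding.

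Among the Slit and Robo genes, 3 of 7 were expressed highly enough to be tested. Slit2, the secreted ligand, had 2006, 2117 and 1869 normalized counts in the TNF-α libraries, against 879, 792 and 710 in the TNF-α+EMO libraries (log2 fold change -1.33, standard error 0.09, adjusted p = 9.1e-08). Its receptors were lower as well. Robo1 had 765, 877 and 819 against 289, 275 and 207 (log2 fold change -1.67, standard error 0.12, adjusted p = 2.4e-07), and Robo2, which lies 919 kb from it on chromosome 11, had 377, 382 and 368 against 76.3, 71.6 and 51.9 (log2 fold change -2.49, standard error 0.15, adjusted p = 5.6e-08). None of these groups overlapped. Whether the ligand and the receptors differed in fold was not tested.

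The 19 members not tested had at most 16 counts in any library. Slit3 had 3, 5 and 5 raw counts in the TNF-α libraries, against 0 in the TNF-α+EMO libraries, and Slit1 had 1, 0 and 6 against 10, 8 and 7. Sema5a had 10, 11 and 5 against 1, 2 and 3. Epha1 had 16, 16 and 8 against 5, 1 and 5, but it overlaps Zyx, a gene with up to 7041 counts, so its few reads are uncertain. Sema4a, Sema6d, Sema3e, Sema4f, Plxna4, Epha3, Epha8 and Efnb3 had at most 6 counts in any library. Epha5, Epha7, Ephb1, Plxnb3, Robo3, Robo4 and Sema5b were at 0 in all 6 libraries, which at this depth allows up to 3 counts in a library.

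The makeup of each family was compared on counts per kilobase of the deposited gene length, since counts of genes of different length are not comparable. The semaphorin sum was 4114 ± 73.2 normalized counts per kilobase in the TNF-α group and 2748 ± 131 in the TNF-α+EMO group (SD, n = 3 each), a ratio of 1.5. The plexin sum went from 3773 ± 174 to 940 ± 46.1, a ratio of 4.01. The semaphorin sum was dominated by Sema3c, and by gene the median log2 fold change was -2.24 for semaphorins and -1.87 for plexins. A difference between ligands and receptors was not tested. The Eph sum went from 1444 ± 57.3 to 426 ± 30.3 (ratio 3.39) and the ephrin sum from 4181 ± 117 to 892 ± 37.1 (ratio 4.69). No sum had overlapping groups. By subclass, the ephrin-B sum had the highest ratio, 16.0, against 3.54 for ephrin-A (14.7 and 2.32 on counts not scaled to length). That ratio was mostly Efnb1, which was 93.9% of the ephrin-B sum in the TNF-α group. By gene, Efnb2 fell 2.68-fold, while among the ephrin-A genes Efna5 fell 17.5-fold and Efna1 rose 1.35-fold. EphB genes had a ratio of 4.75 against 2.11 for EphA. In the TNF-α group Ephb4 was 77.9% of the EphB sum and Epha2 81.5% of the EphA sum. These ratios were thus mostly those of Ephb4 and Epha2. By gene, Epha4 fell 4.52-fold, between Ephb3 at 3.58-fold and Ephb4 at 5.12-fold. A difference between the subclasses was not tested.

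**Figure D3:**
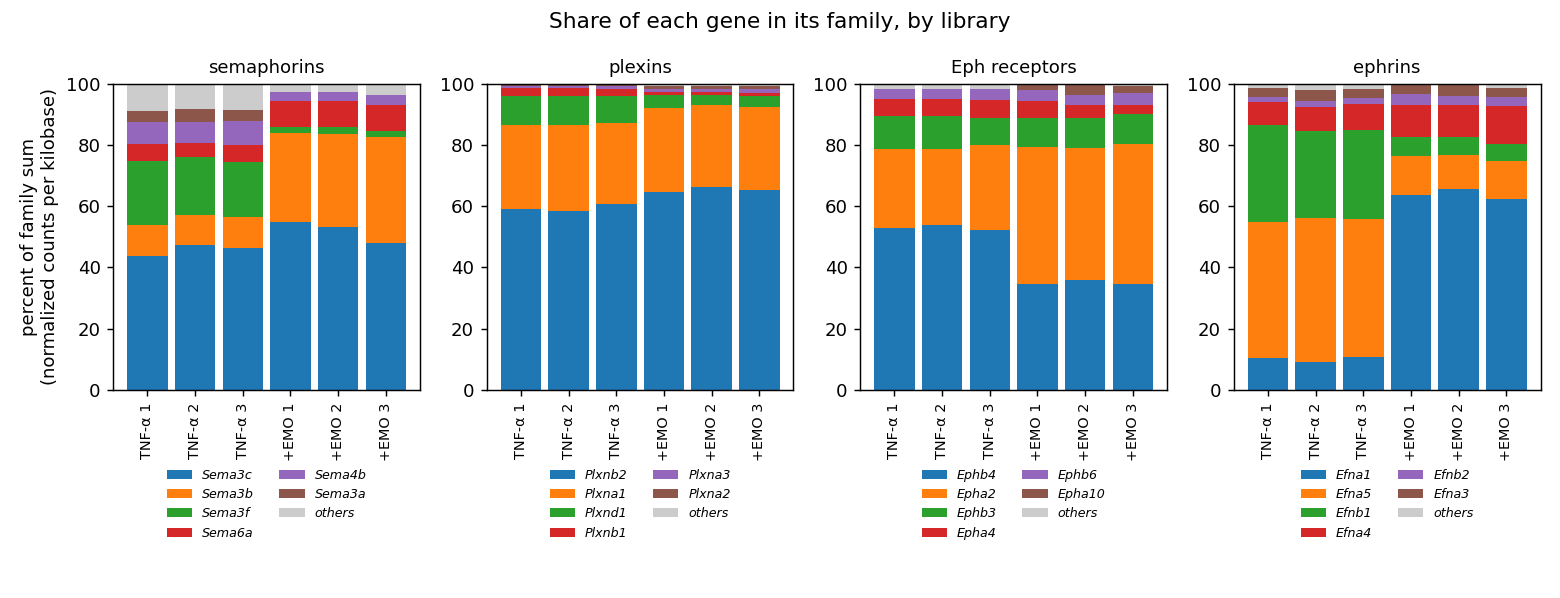
Share of each gene in the sum of its family, in percent of normalized counts per kilobase, for the 3 TNF-α and the 3 TNF-α+EMO libraries (each bar is 1 library, and genes beyond the 6 largest are pooled as others). In the ephrin panel Efna1 is 10.1% of the sum on average in the TNF-α libraries, against 63.9% in the TNF-α+EMO libraries.

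Which ligand led its family differed between the groups for ephrins. Per kilobase, Efna5 made up 45.5% and Efnb1 29.7% of the ephrin sum in the TNF-α group, and Efna1 10.1%. In the TNF-α+EMO group Efna1 made up 63.9%, Efna5 12.2% and Efnb1 5.84%. The deposited lengths of Efna5 (666 bases) and Efna3 (690 bases) are short for transcripts, which raises their values per kilobase. On raw counts the share of Efna5 in the TNF-α group was 18.1% and Efnb1 led with 57.9%, while Efna1 led with EMO on either scale (61.7% on raw counts). Among the Eph genes, Ephb4 was 52.9% and Epha2 26.1% of the sum per kilobase in the TNF-α group, and 35.0% and 44.6% with EMO, so their order was reversed. Plxnb2 and Plxna1 led the plexins in both groups, with Plxnb2 at 59.4% and 65.4% and Plxna1 at 27.3% and 27.1%. Lower down, Plxnb1 went from 2.48% to 1.01%. Plxna3 had 0.828% and 1.05% on average, but its groups overlapped (0.775% to 0.884% against 0.817% to 1.18%). In the semaphorins Sema3c led in both groups, with 45.8% ± 2.00 and 52.0% ± 3.70 (SD, n = 3 each), while Sema3b went from 10.1% to 31.2% and Sema3f from 19.3% to 2.09%. On raw counts these shares were 5.44% and 19.4% for Sema3b and 25.3% and 3.14% for Sema3f.

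Genes that work with these ligands and receptors were listed by role, and 65 of 83 were tested. Of these, 36 (55.4%) were called lower and 2 higher, around a median of -1.24 on the log2 scale. Of all genes, 27.8% were called lower and 19.5% higher. Both neuropilins, the co-receptors of class 3 semaphorins, were called lower. Nrp2 had 20840, 20531 and 18913 normalized counts in the TNF-α libraries, against 2738, 2684 and 2583 in the TNF-α+EMO libraries (log2 fold change -2.91, standard error 0.06, adjusted p = 1.9e-11), and Nrp1 had 1503, 1591 and 1446 against 118, 141 and 102 (log2 fold change -3.65, standard error 0.12, adjusted p = 2.5e-10). Of the 7 co-receptors tested, 5 were called lower. Itgb1, the integrin beta-1 chain through which Sema7a signals, differed little, with 16513, 17459 and 16972 against 14571, 14065 and 12583 (log2 fold change -0.31, standard error 0.06, adjusted p = 1.1e-03). Itga1, the alpha-1 chain that pairs with it, had 2023, 2191 and 2093 against 67.0, 92.1 and 87.6 (log2 fold change -4.67, standard error 0.11, adjusted p = 3.3e-11). Nrp1 and Itga1 are outside the naming rule and were chosen after their values were seen.

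The intracellular effectors act largely on the cytoskeleton. Of 18 semaphorin-plexin effectors 7 were called lower and 1 higher (median -0.77), and of 20 Eph-ephrin effectors 9 were called lower and none higher (median -1.0). In either direction 44.4% and 45.0% were called, near the 47.3% of all genes, with 38.9% and 45.0% called lower against 27.8%. Dpysl3, a collapsin response mediator protein that acts on the cytoskeleton downstream of Sema3a, had 7518, 7790 and 7260 normalized counts against 271, 261 and 314 with EMO, a 26.7-fold fall (log2 fold change -4.74, standard error 0.08, adjusted p = 5.1e-12). Fyn, a Src family kinase recruited by plexin and ephrin signalling, rose from 131, 158 and 151 to 1018, 984 and 1013 (log2 fold change 2.77, standard error 0.09, adjusted p = 4.1e-10), and is named after its values were seen as 1 of the 2 partners called higher. Sdcbp, the syntenin scaffold that binds ephrin-B tails, was the most abundant partner and went from 23980 to 12669 normalized counts on average (log2 fold change -0.92, standard error 0.06, adjusted p = 1.5e-07).

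Among the 10 Slit-Robo partners, 6 were called lower and 1 higher (median -1.40), and 2 genes of srGAP proteins, which bind Robo tails, went in opposite directions. Srgap1 had 11.8, 4.88 and 5.85 normalized counts in the TNF-α libraries, against 333, 296 and 258 in the TNF-α+EMO libraries (log2 fold change 5.28, standard error 0.27, adjusted p = 1.1e-08). Srgap3 had 385, 410 and 366 raw counts against 1, 2 and 0, a ratio of 369 (95% exact counting interval 126 to 1792, adjusted p = 1.0e-09). The groups did not overlap for either gene, and the low group was near or under the floor for both. The other srGAP gene, Srgap2, named after its values were seen, had 1253, 1377 and 1328 normalized counts against 775, 712 and 721 (log2 fold change -0.84, standard error 0.07, adjusted p = 1.0e-06). Dag1, dystroglycan, which binds Slit proteins, had a log2 fold change of -1.81 (standard error 0.06). Of 10 netrin, RGM and related genes tested, 9 were called lower and none higher (median -2.44), among them the netrin receptor Unc5b at 7565, 7527 and 6960 against 1873, 1970 and 1845 (log2 fold change -1.96, standard error 0.06, adjusted p = 2.6e-10).

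**Figure D4:**
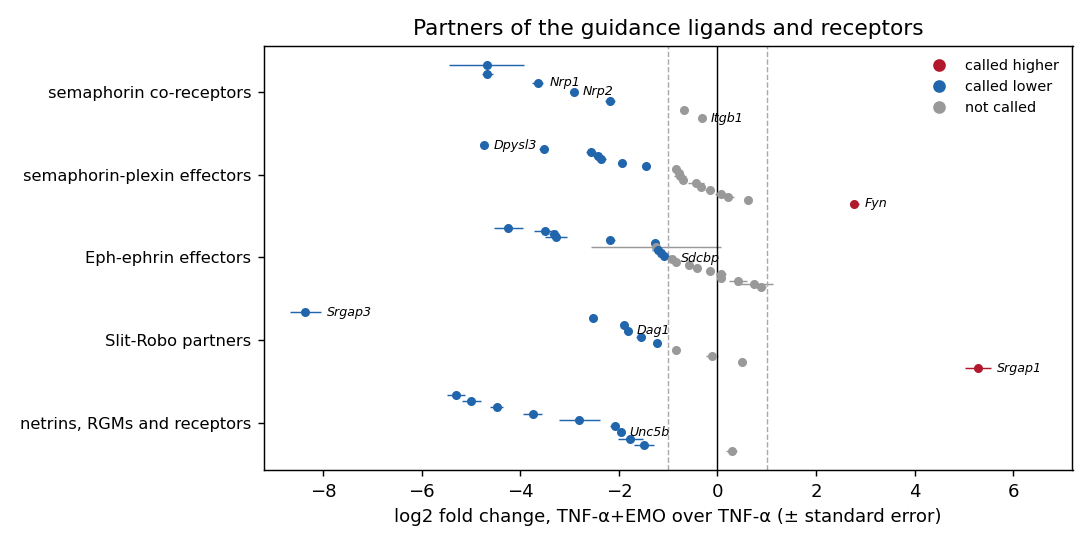
Log2 fold change of the 65 tested partner genes, TNF-α+EMO over TNF-α, with standard errors (3 libraries per group), in rows by role. Red points were called higher, blue called lower and grey not called, and the 2 red points are Fyn and Srgap1.

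The replicates of these genes spread more with EMO than without it. For the 28 members with at least 50 normalized counts in both groups, the median coefficient of variation was 5.98% over the TNF-α libraries and 11.8% over the TNF-α+EMO libraries. Most of them had fewer counts with EMO, where counting error is relatively larger, and its part in this difference was not tested. The same was seen over all 9993 genes at that level, at 5.06% and 8.68%. The study's methods name 3 biological replicates per condition, and the labels do not say whether they were separate cultures, so the p-values measure the spread between these libraries, which may be technical. An exact permutation test of 3 against 3 libraries cannot go below 0.1 (two-sided), while edgeR pools the spread over genes.

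Markers of other cell types were low or moved with the groups, and their part in the results was not tested. Per library, the macrophage and leukocyte list (10 genes) summed to between 1206 and 1312 normalized counts in the TNF-α group and between 747 and 818 in the TNF-α+EMO group, with Cd163 at 0 in every library. Most of that sum was Cd14 (log2 fold change -1.10, standard error 0.09). The other markers tested were higher with EMO, Cd68 by 0.75 (standard error 0.13) and Itgam by 4.78, and of these only Itgam was called. The lymphocyte list (8 genes) summed to at most 8.83. The endothelial list (7 genes) summed to between 70.2 and 76.5 against 16.3 and 22.7, with Kdr, Emcn and Cldn5 at 0. The neuron and Schwann cell list (9 genes) summed to between 81.4 and 103 against 253 and 262, with Sox10 and Tubb3 at 0. Only 2 of these genes were tested, 1 called higher (log2 fold change 2.66) and 1 called lower (-4.59). Another 6 had at most 3 counts in every library. The pericyte and smooth muscle list (7 genes) summed to between 994 and 1065 against 76.7 and 93.7. The epithelial list (6 genes) summed to between 9942 and 10802 against 1984 and 2333, with Epcam and Esrp1 at 0. Nearly all of that sum was Krt8 (log2 fold change -2.28, standard error 0.07), while Cldn4 was at 0 in the TNF-α libraries and had 16.5, 17.4 and 28.5 normalized counts with EMO. The chondrocyte list (6 genes) summed to between 471 and 562 against 9.21 and 10.3, with Acan and Col9a1 at 0.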

How the data were processed

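The authors deposited raw counts per gene for each library, 34156 genes in all, made from poly(A)-selected paired-end libraries. The submitters' processing notes name FastQC, Trimmomatic, HISAT2 and Rnor_6.0. The counting program, annotation version and strand setting are not given in the sources used here, so reads of overlapping genes cannot be told apart. The deposited FPKM values and the authors' own comparison (fold changes and p-values) were not used, and 0 columns belonged to samples of another series.

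A gene entered the test if 3 or more libraries had 10 or more counts (13614 genes). The fit used edgeR 4.0.16 under R 4.3.3 with TMM scaling (robust quasi-likelihood F test, 3 against 3 libraries, no covariate, Benjamini-Hochberg adjustment over all genes tested, common biological coefficient of variation 0.121). DEGs passed both an adjusted p of 0.05 and a log2 fold change of 1 in either direction. Normalized counts are counts scaled to the mean TMM library size. The standard error is the size of the log2 fold change divided by the square root of F. Depth (16813322 to 17794455 counts per library) sets a floor of 3 counts, and intervals of ratios are exact Clopper-Pearson, at 95%, for counting error only, since reads carry no molecular identifiers. The fit was tested on simulated counts with few changed genes, rises and falls equally likely, and the common dispersion for every gene. In the data 47.3% of genes were DEGs, so the simulation does not test the scaling under so broad a change.

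Members and lists were chosen with earlier results of these data known. Genes are named by a rule: in each role group the 3 tested members with the highest mean (partners, 6), the called member with the largest rise and the largest fall among those whose mean reached 20 counts, and members with one group at 3 counts or fewer. Other genes given with values are marked as such, apart from the cell type markers and the members not tested. Of the listed genes, Grb4, Col1a2 and Pecam1 were not analysed here. Promoters of 45 members were matched by symbol in the RefSeq table. Alternatives were DESeq2 1.42.0, limma 3.58.1 (voom), glmTreat, other scalings, filters and thresholds, a replicate block, raw counts in place of counts per kilobase, and leaving out each library.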

Additional observations from a re-analysis of the deposited data

How the results depend on the processing

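All 14 counts of calls kept within 1.5 times their value with DESeq2, limma-voom, glmTreat, RLE and upper-quartile scaling, no count filter, and the replicate block. Requiring at least 50 counts in 3 libraries left 1 of the 3 members called higher, with 0 plexins and 0 Eph receptors among them. A log2 fold change over 2 left 18 of the 29 members called lower, with 0 semaphorins called higher and 3 plexins, 3 Eph receptors, 1 Slit or Robo gene and 23 partners called lower. With library totals in place of TMM 0 semaphorins were called higher, and the median log2 fold change of all genes moved to -0.125 (-0.128 with no count filter). With the adjusted p alone 1 ephrin (Efna1) and 6 partners were called higher. Leaving out each library in turn gave 2 to 3 members higher and 29 to 30 lower, 0 to 1 semaphorins higher (0 without EMO library 3), 5 to 6 Eph receptors lower and 2 to 3 partners higher. The cause was not tested. With the replicate block 3 members were called higher and 29 lower, as without it. The deviations of same-numbered libraries correlated at 0.0193, -0.00683 and 0.0676, so the numbers were not taken to pair the libraries. Of 695 values of 41 named genes under the alternatives, 668 kept their direction and side of the threshold, 16 lost the call, 11 gained it and 0 changed direction. Epha10 and Sema3g have no value under the stricter filter. On raw counts Sema3c was 50.2% and 65.1% of its family (TNF-α and TNF-α+EMO), and Plxnb2 54.1% and 59.5%. Depth limits the genes near 3 counts, whose fold sizes depend on the prior count.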

Other observations

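Plxna4, the receptor that with Plxna2 binds Sema6a, had 1 count in a single TNF-α library and 0 elsewhere, so that Plxna2 was the measured receptor of a ligand whose own level did not pass the test. Sema7a and its receptor Plxnc1 went in opposite directions, from 128, 128 and 101 to 16.5, 4.09 and 37.7 normalized counts for the ligand and from 5, 0 and 3 to 34, 35 and 34 raw counts for the receptor. Of the netrin and RGM genes, Ntn4 had a log2 fold change of -5.31 (standard error 0.18), Flrt2 of -4.99 (standard error 0.19), Ntn3 of -4.48 (standard error 0.14) and Rgma of -3.75 (standard error 0.19), each called lower by edgeR, while Rgmb had 0.29 (standard error 0.11, adjusted p = 0.03). These 5 genes are outside the naming rule and were chosen after their values were seen.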
